A study of Mus musculus with 18 samples.

Results

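The genes described here are 40 genes of the cell division cycle, taken by symbol from a named list, out of 45777 genes in the table; all 40 were present and all 40 passed the filter on low counts, which kept 17159 genes. They fall into 5 roles: 8 G1 cyclins, kinases and E2f1, 8 genes of origin licensing and the replicative helicase, 4 genes of DNA synthesis and nucleotide supply, 9 mitotic cyclins, kinases and regulators, and 11 genes of the checkpoint, spindle, kinetochore and chromosomes. A dividing cell passes from G1, where D-type and E-type cyclins with their kinases release E2F transcription factors, into S phase, where licensed origins fire and DNA is copied, and through G2 into mitosis, driven by cyclin B with Cdk1. The S phase genes are largely E2F targets and peak early, whereas the mitotic genes are switched on later, and their mRNA is low in resting cells. Mast cells grown from marrow divide in culture while they mature, and their cell cycle mRNA is often read as a measure of how many cells are cycling.

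RNA was sequenced in 18 libraries of bone marrow-derived mast cells (BMMC), which are cultured from the marrow of mouse femurs and tibias. The WT groups carried Sirt6 flox/flox, that is Sirt6 alleles with loxP sites and no Cre, and the KO groups carried LysM-Cre; Sirt6 flox/flox, in which the lysozyme M promoter drives Cre in myeloid cells. All groups thus share the floxed allele, and Sirt6 encodes a nuclear deacetylase. Each genotype was taken at levels 0, 20 and 60, for which no unit is given; the samples at 20 and 60 carry LPS as their treatment label and those at 0 carry none. Every group holds 3 libraries with the numbers 4120, 414 and 6110, but whether they are different mice or separately grown cultures is not said; a p-value then covers the spread between these libraries, which may be technical. The age of the animals is not given in the sources used here. A culture below means the 3 libraries of 1 genotype and 1 number.

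Library totals ran from 20.0 M to 42.3 M counts (M, 1e6), so that 3 counts in the smallest library are 0.15 CPM (counts per 1e6 counts, library sizes scaled with TMM). All 12 mast cell markers were detected, with a summed level of 18076 to 49308 CPM per library, against 4.13 to 69.4 CPM for 12 neutrophil markers. Sirt6 itself was not lower in the libraries labelled KO: at level 0 it stood at 11.99, 14.9 and 16.8 CPM in WT and at 18.7, 13.7 and 17.7 CPM in KO, a log2 difference of 0.19 (SE 0.22, edgeR adjusted p = 0.74). At level 20 it stood at 10.7, 16.6 and 16.9 CPM against 15.5, 14.7 and 21.1 CPM, and at level 60 at 9.73, 10.7 and 11.8 CPM against 10.4, 11.2 and 13.7 CPM. Which exons Cre removes is not stated in the labels and the counts are per gene, so this checks neither the deletion nor the labels, and each genotype below is that of the label. The share of mitochondrial counts was above 20% in 5 libraries, 2 of number 4120 and 3 of number 414, and reached 41.7%. Counts of members called below are given by edgeR's quasi-likelihood test at a Benjamini-Hochberg adjusted p under 0.05 over all genes tested. Each is followed by the share of all genes tested that met the same rule. For alternative runs no share is given, and the number of genes called stands in its place for some of them.

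Per length, Pcna, the sliding clamp of DNA polymerase, was the most abundant member at 327 ± 264 TPM (transcripts per 1e6 transcripts; SD over the 18 libraries, conditions included). Ccnd3, a D-type cyclin, followed at 147 ± 42.4 TPM and its partner kinase Cdk4 at 82.0 ± 19.8 TPM. At level 0 alone, the mean of Ccnd3 was above that of Pcna, though within their spread. It was 170 ± 40.9 against 132 ± 86.9 TPM in WT and 173 ± 60.8 against 156 ± 58.0 TPM in KO. Among the D-type cyclins, Ccnd2 stood at 24.2 ± 9.59 TPM and Ccnd1 at 1.69 ± 0.66 TPM; the range of Ccnd3 (76.1 to 242 TPM) did not meet that of Ccnd2 (9.95 to 44.7 TPM), nor did the latter meet that of Ccnd1 (0.49 to 2.999 TPM). Ube2c, the ubiquitin-conjugating enzyme of the anaphase-promoting complex, led the mitotic members at 24.4 ± 11.2 TPM, and Ccnb2, a B-type cyclin, was next among them at 10.4 ± 6.28 TPM. In the helicase, Mcm3 (20.3 ± 8.39 TPM) and Mcm7 (20.1 ± 7.60 TPM) did not differ beyond their spread, and Mcm5 was the lowest subunit at 2.74 ± 1.22 TPM. The E-type cyclins were near the bottom: Ccne2 stood at 0.63 ± 0.43 TPM and Ccne1 at 0.27 ± 0.12 TPM, with between 0 and 19 counts of Ccne1 per library. At that depth no comparison of Ccne1 is given.

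**Figure D1:**
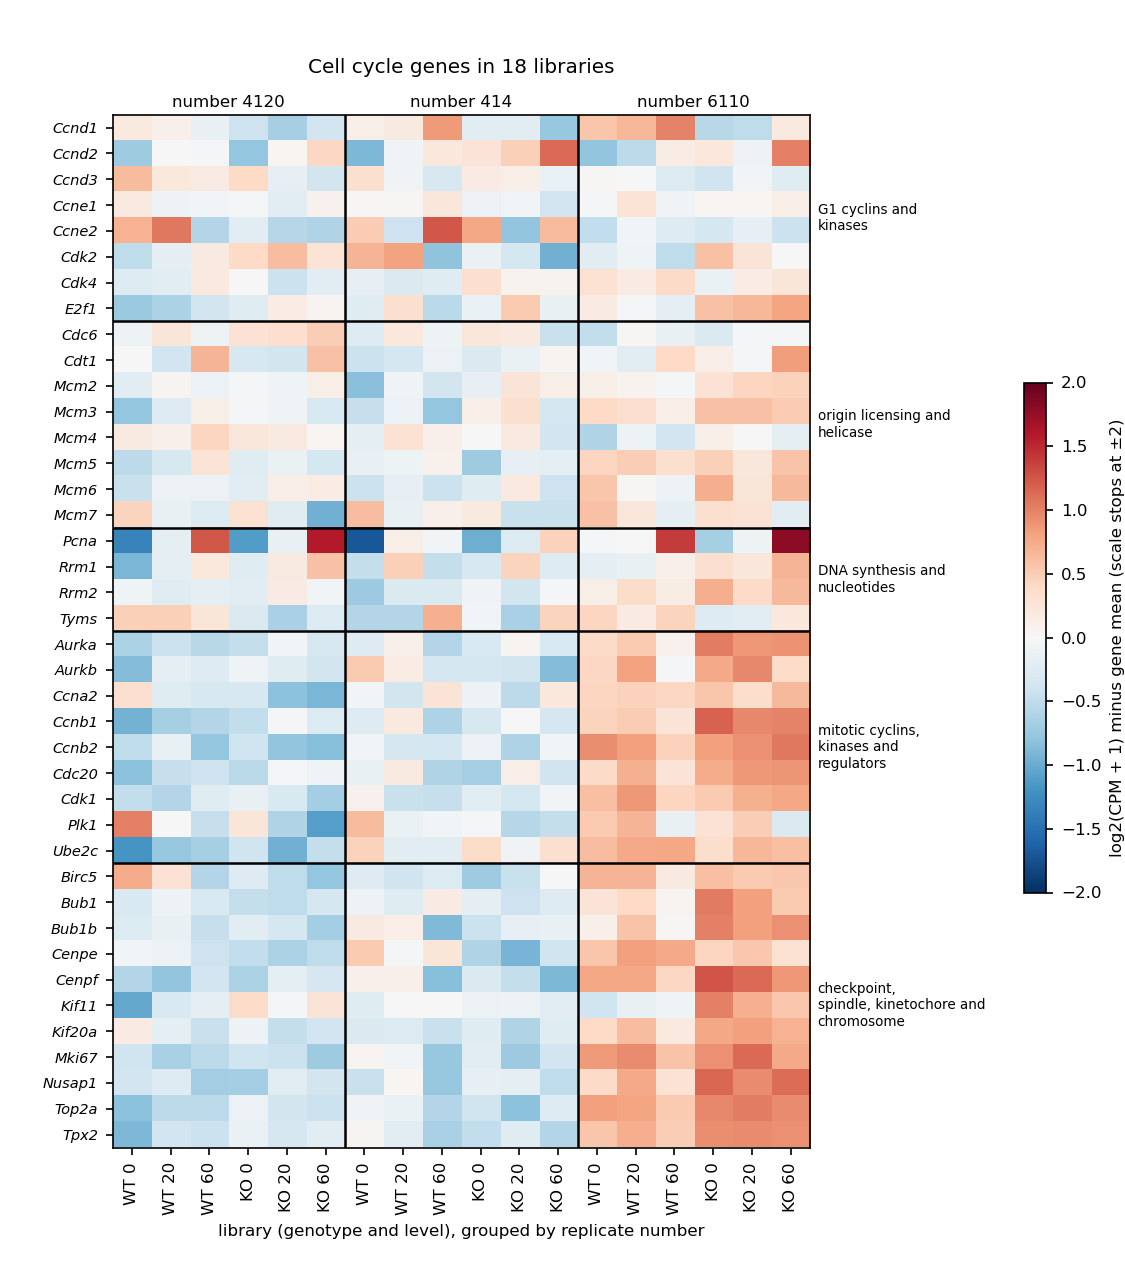
Level of the 40 genes in the 18 libraries, as log2(CPM + 1) minus the gene's mean, with the libraries grouped by replicate number along the horizontal axis and the genes grouped by role along the vertical axis. The mitotic and chromosome genes stand above their means in nearly all 6110 columns, and Pcna is high at level 60.

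The difference shared by most members was between the replicate numbers. In both genotypes and at each level, 6110 libraries had a higher mean of the mitotic and of the chromosome genes than 4120 and 414. Single genes departed from this, such as Kif11, highest in 6110 in 3 of the 6 groups, and Plk1, in 4. Of the 40 members, 18 were highest in the 6110 library in all 6 groups (5.31% of all genes tested were), 0 were highest in 4120 in all 6 (2.67% of genes) and 0 in 414 (0.863% of genes). The 18 comprised 6 of 9 mitotic members (Ccna2, Ccnb1, Ccnb2, Cdk1, Aurka and Cdc20), 7 of 11 of the checkpoint and chromosome role (Mki67, Top2a, Cenpe, Cenpf, Kif20a, Tpx2 and Nusap1), 4 of 8 helicase and licensing genes (Mcm2, Mcm3, Mcm5 and Mcm6), Rrm2 of the 4 synthesis genes and 0 of 8 G1 genes.

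Mki67, which encodes the Ki-67 protein on mitotic chromosomes, stood in WT at 18.2, 25.4 and 44.9 CPM at level 0 (in the order 4120, 414, 6110), at 15.3, 23.5 and 48.1 CPM at level 20 and at 16.8, 14.1 and 36.6 CPM at level 60. In the libraries labelled KO the same numbers gave 18.2, 20.9 and 46.9 CPM, then 17.97, 14.4 and 54.8 CPM, then 14.6, 18.5 and 41.7 CPM. The 6 libraries of 6110 lay between 36.6 and 54.8 CPM and the other 12 between 14.1 and 25.4 CPM, with no overlap. Top2a, the topoisomerase that untangles sister chromatids, lay between 21.3 and 30.7 CPM in 6110 and between 7.81 and 13.8 CPM in the other libraries, again with no overlap. Ccnb2 lay between 11.9 and 18.2 CPM in 6110 and between 4.14 and 7.99 CPM elsewhere. Cdk1, the kinase that starts mitosis, lay between 9.10 and 12.7 CPM in 6110 and between 3.68 and 6.91 CPM elsewhere.

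The mean of the 6110 libraries over the mean of the other numbers was above 1 for 35 of 40 members and above 2 for 14 of them (35% of members, against 1.88% of all genes tested); its median was 1.60 over the members and 0.96 over all genes. The largest ratios belonged to Cenpf, a kinetochore protein (2.96), Nusap1, which bundles spindle microtubules (2.80), and Bub1, a spindle checkpoint kinase (2.72). By role, the ratio ran from 1.43 to 2.96 in the checkpoint and chromosome genes and from 1.28 to 2.58 in the mitotic genes. It ran from 0.72 to 1.65 in the licensing genes and from 0.45 to 1.44 in the G1 genes. The 5 members below 1 were Ccne2 (0.45), Cdc6 (0.72), Mcm4 (0.81), Ccnd3 (0.84) and Cdk2 (0.96). Cdc6 helps to load the helicase of which Mcm4 and the Mcm members above 1 are subunits. Cdc6 was highest in 4120 in 5 of the 6 groups.

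As the mean log2 CPM of each role, 6110 exceeded the mean of the other numbers by 1.18 in the checkpoint and chromosome genes (0.78 to 1.54 over the 6 groups) and by 1.06 in the mitotic genes (0.82 to 1.27). The difference was 0.51 in the DNA synthesis genes, 0.27 in licensing and 0.10 in the G1 genes, which in 1 or more groups were lower in 6110 (range −0.18 to 0.45). In WT the mitotic mean over 3 levels was 1.90 ± 0.08 log2 CPM in 4120, 2.32 ± 0.27 in 414 and 3.03 ± 0.23 in 6110 (SD over 3 levels). In the cultures labelled KO it was 1.94 ± 0.16, 2.17 ± 0.03 and 3.27 ± 0.06. The order of the cultures was thus the same in both genotypes for this role, and 6110 stood apart in each.

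**Figure D2:**
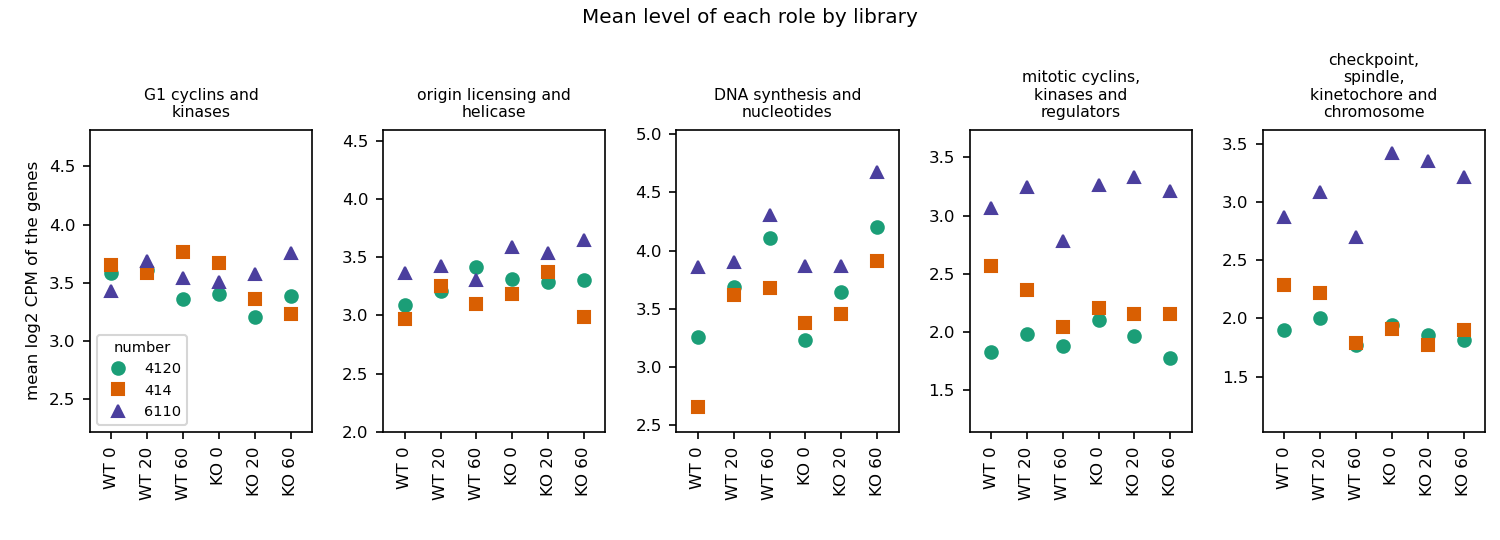
Mean log2 CPM of each role in every library, 1 panel per role, with the 6 genotype and level groups on the horizontal axis and the replicate number by colour and shape; each panel spans the same range of log2 CPM. In the mitotic and the chromosome panels the 6110 point is the highest of its group in all 6 groups, while in the G1 panel the numbers interleave.

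A test of the counts summed per culture, with genotype in the model and 3 numbers in 2 genotypes, called 0 members (0.0328% of genes, that is 6, were called), and DESeq2 called 15 among 1168 genes. At an unadjusted p under 0.05 there were 24 of 40 members, against 15.3% of genes: 8 of 9 mitotic, 10 of 11 chromosome and checkpoint, 3 licensing, 2 synthesis and 1 G1. The smallest values belonged to Mki67, Ccnb2 and Top2a, with an edgeR adjusted p of 0.168, 0.168 and 0.192. With number 414 left out, 15 members were called among 1522 genes, Mki67 with an adjusted p of 0.00813, and with 6110 left out, 2 members had an unadjusted p under 0.05.

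Mast cell markers and mitochondrial counts moved with the numbers as well. The summed mast cell markers ran from 37480 to 49308 CPM in 6110, from 18076 to 31174 CPM in 4120 and from 19892 to 43094 CPM in 414, and 0 of the 12 were highest in 6110 in all 6 groups. None of the 12 is at 0 in every library. The mitochondrial share had a median of 8.16% in 6110 (4.07% to 15.7%), 9.47% in 4120 (4.45% to 38.9%) and 22.4% in 414 (6.53% to 41.7%). KO at level 20 was the 1 group of 6 with no library above 20% (5.54%, 8.17% and 5.24%), and its mitotic mean was 1.96, 2.16 and 3.33 log2 CPM. The part of either measure in the pattern was not tested. In bulk RNA, fewer cycling cells and less of this mRNA in each cell cannot be told apart. Animal, culture, day and library preparation are not recorded apart from the number, and cannot be told apart either.

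The mitotic and chromosome members, 13 of the 18 highest in 6110, and the members of the earlier roles are set side by side here by promoter sequence. RefSeq windows of 300 bases (250 before to 50 after the transcript start, GRCm38.p6) were found for 32 of the 40 members, in 34 windows. The letters TTTGAA, the core of the cell cycle genes homology region (CHR), stood on either strand in 11 of 16 windows of the mitotic and chromosome members and in 1 of 18 windows of the others, against 17.9% of all 32851 windows. The letters CCAAT stood in 14 of 16 and 11 of 18 windows, against 37.4% of all. An E2F motif, TTTGGCGC or TTTCCCGC, stood in 0 of 16 and 7 of 18 windows, against 1.56% of all. Among the mitotic and chromosome members of the 18, Ccnb1, Cenpe and Nusap1 hold no TTTGAA in their windows. Bub1b, Kif11, Plk1 and Ube2c hold it but were not among the 18, and Birc5 and Bub1 do neither. TTTGAA was thus present and absent on both sides. A match is a description of the letters, not a measured site. For 5 members the 250 bases before the start are printed on the gene's strand, with matches to any of these letters on either strand in capitals; no match there shares a base with another. Cdc20, which activates the anaphase-promoting complex, and Ccnb2 were among the 18 genes highest in 6110 and hold both TTTGAA and CCAAT:
Cdc20: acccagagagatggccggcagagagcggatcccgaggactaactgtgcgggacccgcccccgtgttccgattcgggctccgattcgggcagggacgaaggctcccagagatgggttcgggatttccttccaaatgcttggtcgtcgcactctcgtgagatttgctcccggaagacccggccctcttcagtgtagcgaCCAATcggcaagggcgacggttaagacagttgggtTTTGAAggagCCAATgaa
Ccnb2: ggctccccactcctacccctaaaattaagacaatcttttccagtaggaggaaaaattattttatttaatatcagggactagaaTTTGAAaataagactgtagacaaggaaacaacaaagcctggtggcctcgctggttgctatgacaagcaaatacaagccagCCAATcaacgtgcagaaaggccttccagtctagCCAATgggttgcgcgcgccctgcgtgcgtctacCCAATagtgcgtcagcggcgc
Mcm6, a helicase subunit highest in 6110, and Cdk2, the G1 and S phase kinase that was not, hold E2F letters:
Mcm6: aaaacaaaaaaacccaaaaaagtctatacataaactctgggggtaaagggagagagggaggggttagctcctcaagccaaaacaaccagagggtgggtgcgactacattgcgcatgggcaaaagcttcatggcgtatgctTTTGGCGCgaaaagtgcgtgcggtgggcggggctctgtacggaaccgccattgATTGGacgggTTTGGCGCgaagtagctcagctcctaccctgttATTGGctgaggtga
Cdk2: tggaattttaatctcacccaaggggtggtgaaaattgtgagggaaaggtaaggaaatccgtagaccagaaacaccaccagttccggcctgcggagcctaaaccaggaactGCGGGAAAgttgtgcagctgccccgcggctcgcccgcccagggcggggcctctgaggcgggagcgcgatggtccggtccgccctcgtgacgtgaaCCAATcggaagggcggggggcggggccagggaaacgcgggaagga
Pcna, the member that differed most with level, holds CCAAT and none of the other letters before its start:
Pcna: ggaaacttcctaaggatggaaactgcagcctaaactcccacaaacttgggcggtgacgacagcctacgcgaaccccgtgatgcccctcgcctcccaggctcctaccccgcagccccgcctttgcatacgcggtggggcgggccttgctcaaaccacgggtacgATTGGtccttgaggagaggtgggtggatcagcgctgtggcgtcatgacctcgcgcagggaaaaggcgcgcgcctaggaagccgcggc
These windows lie at chr4:118437344-118437593 (Cdc20, minus strand), chr9:70421555-70421804 (Ccnb2, minus), chr1:128359706-128359955 (Mcm6, minus), chr10:128705052-128705301 (Cdk2, minus) and chr2:132253181-132253430 (Pcna, minus). Counted from the start, the TTTGAA match begins at −18 in Cdc20 and at −167 in Ccnb2, and the E2F matches at −110 and −47 in Mcm6 and at −140 in Cdk2.

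The genotypes were compared at each level, the question the study set. No member differed between the libraries labelled KO and WT at the adjusted threshold. At level 0, edgeR called 0 of 40 members (0.274% of genes), with 3 at an unadjusted p under 0.05 (12.1% of genes). At level 20 it called 0 (0.21% of genes), with 1 unadjusted (7.79%), and at level 60 it called 0 (0.268%), with 2 unadjusted (10.7%). DESeq2, limma-voom and tests of TPM and FPKM also called 0 members at each level. The median log2 difference of the members, KO minus WT, was 0.13, 0.01 and 0.23 at levels 0, 20 and 60, beside 0.01, −0.02 and 0.02 for all genes tested. Scaled by library size alone, the medians of all genes were 0.16, 0.14 and 0.04, and those of the members 0.31, 0.17 and 0.25. Without the 6110 library of the KO group the members' medians were −0.37, −0.42 and −0.20, and without that of the WT group 0.41, 0.28 and 0.52.

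Some markers of other cells moved with genotype. The summed neutrophil markers ran from 4.13 to 9.10 CPM in WT and from 10.6 to 51.9 CPM in KO at level 0, from 5.28 to 16.6 against 17.6 to 68.9 CPM at 20, and from 5.64 to 19.5 against 20.1 to 69.4 CPM at 60, with no overlap at any level. The 4 progenitor markers, which include the mast cell marker Kit, summed to between 1132 and 1960 CPM in WT and between 2664 and 3002 CPM in KO at level 0, and to between 1282 and 1898 against 2180 to 2347 CPM at 20, with no overlap. At 60 they overlapped (940 to 1678 against 1556 to 2430 CPM). The summed macrophage, B cell and T cell markers overlapped between genotypes at every level. Macrophage markers ran from 9.73 to 27.0 CPM in WT and from 18.2 to 23.9 CPM in KO at level 0. Erythroid markers overlapped at 0 and 20 but were higher in KO at 60. Basophil markers overlapped at 0 and 60 but were higher in KO at 20. The part of these markers in the genotype values of any gene given here was not tested.

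**Figure D3:**
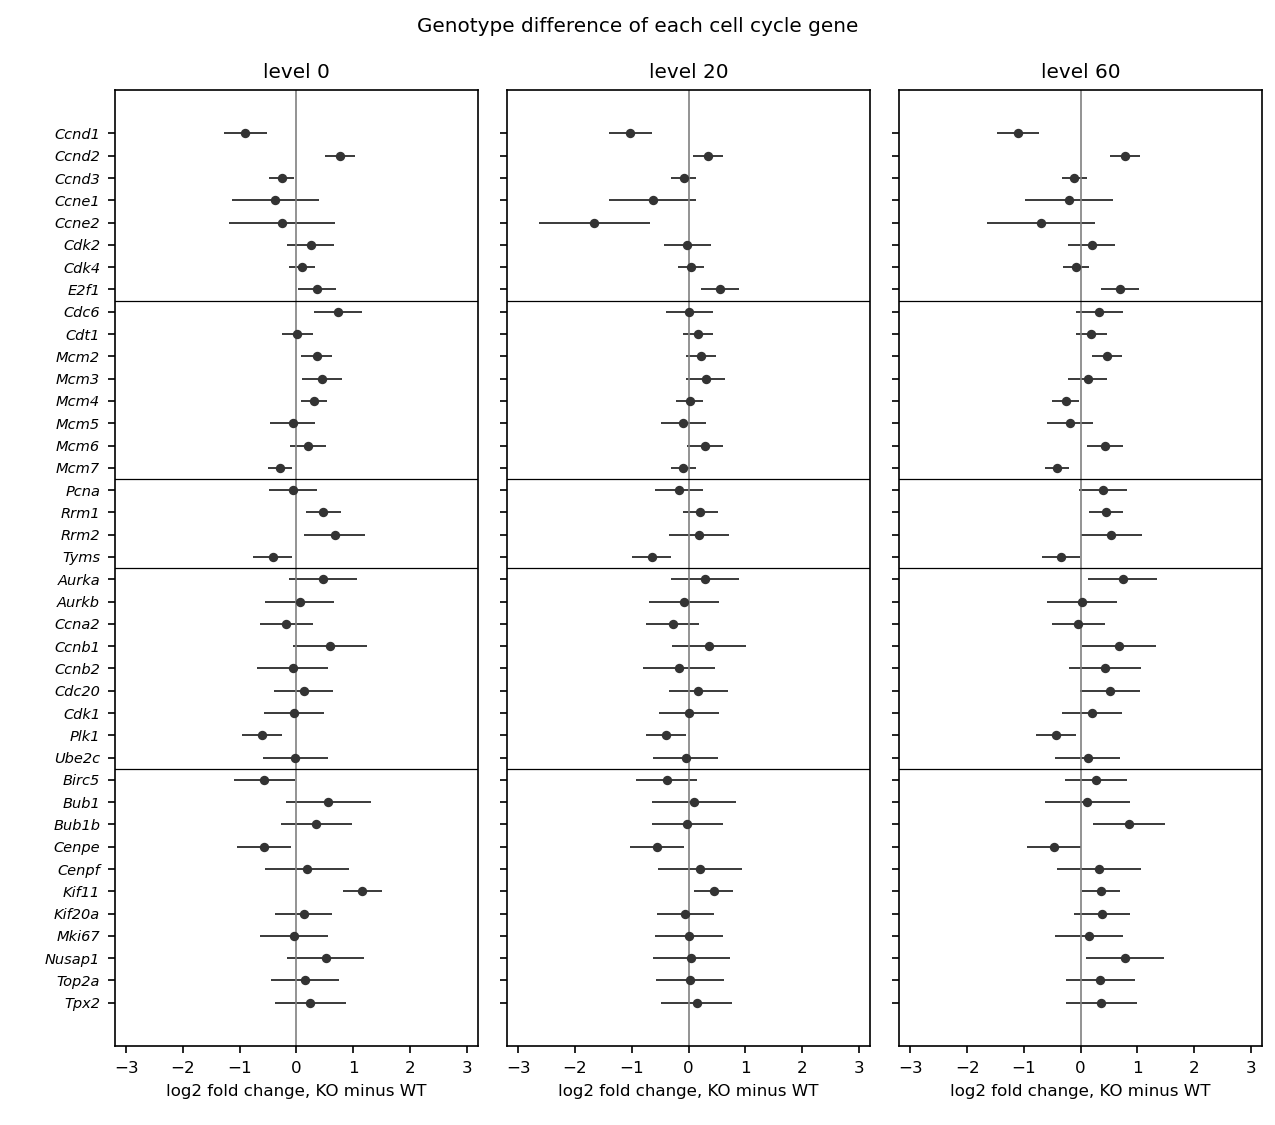
Log2 fold change of KO against WT for each of the 40 genes at levels 0, 20 and 60 (points), with the standard error from edgeR's fit as bars and horizontal lines between roles. Ccnd1 lies to the left of 0 and Ccnd2 to the right at all 3 levels; no gene passed the adjusted threshold.

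Among the members of smallest p, D-type cyclins recurred, which couple growth signals to the G1 kinases Cdk4 and Cdk6. Ccnd1 stood at level 0 at 4.37, 4.06 and 5.89 CPM in WT and at 2.51, 2.99 and 2.18 CPM in the libraries labelled KO, with no overlap (log2 difference −0.90, SE 0.38, edgeR adjusted p = 0.373). At level 20 the values were 4.04, 4.27 and 6.43 CPM against 1.96, 2.99 and 2.29 CPM, again with no overlap (−1.03, SE 0.38, adjusted p = 0.564). At level 60 they were 3.23, 7.47 and 8.25 CPM against 2.57, 1.77 and 4.37 CPM, where the lowest WT library lay below the highest KO library (−1.11, SE 0.37, adjusted p = 0.322). Ccnd2 had the opposite sign. It stood at level 0 at 50.5, 44.1 and 48.0 CPM in WT and at 48.5, 99.3 and 96.6 CPM in KO, so the 4120 library labelled KO lay among the WT libraries (0.78, SE 0.26, adjusted p = 0.307). At level 20 it stood at 83.6, 79.2 and 57.6 CPM in WT and at 85.3, 116 and 77.9 CPM in KO, with overlap. At level 60 it stood at 81.4, 96.0 and 92.2 CPM in WT and at 110.9, 185 and 168 CPM in KO, with no overlap (0.78, SE 0.26, adjusted p = 0.322). Ccnd3, the most abundant of these cyclins, had an edgeR adjusted p of 0.664, 0.936 and 0.876 at levels 0, 20 and 60.

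Kif11, the motor that separates spindle poles, had the smallest p at level 0. It stood at 2.89, 5.67 and 4.98 CPM in WT and at 9.25, 6.28 and 14.8 CPM in KO, with no overlap (log2 difference 1.16, SE 0.34, edgeR adjusted p = 0.253). Number 6110 was the highest of the KO libraries and 4120 the lowest of the WT libraries. E2f1, the factor that switches on S phase genes, stood at level 60 at 10.1, 8.85 and 11.4 CPM in WT and at 13.9, 11.8 and 23.6 CPM in KO, with no overlap (0.70, SE 0.34, adjusted p = 0.469). Tyms, which makes thymidylate, stood at level 20 at 11.8, 5.12 and 9.30 CPM in WT and at 4.90, 4.87 and 6.92 CPM in KO, with overlap (−0.65, SE 0.34, adjusted p = 0.648). Ccne2 at level 20 ran from 0.58 to 3.37 CPM in WT and from 0.22 to 0.89 CPM in KO (−1.66, SE 0.97, adjusted p = 0.671). Its counts ran from 6 to 75 per library.

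With the counts of each culture summed over levels, edgeR called 0 members between the genotypes (0.142% of 18280 genes were called), with 2 at an unadjusted p under 0.05 (11.6% of genes), and DESeq2 called 0 members. Ccnd1 stood at 3.69, 4.92 and 7.14 CPM in the WT cultures and at 2.38, 2.70 and 3.07 CPM in those labelled KO, with no overlap (log2 difference −0.95, SE 0.30, adjusted p = 0.323). Ccnd2 stood at 74.4, 70.0 and 68.8 CPM in WT and at 81.6, 127 and 119.8 CPM in KO, also with no overlap (0.62, SE 0.20, adjusted p = 0.330). Kif11 stood at 5.05, 6.41 and 6.12 CPM in WT and at 8.32, 6.21 and 12.9 CPM in KO, with overlap (0.65, SE 0.29, adjusted p = 0.458). The median log2 difference of the members was 0.09, beside 0.02 for all genes.

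**Figure D4:**
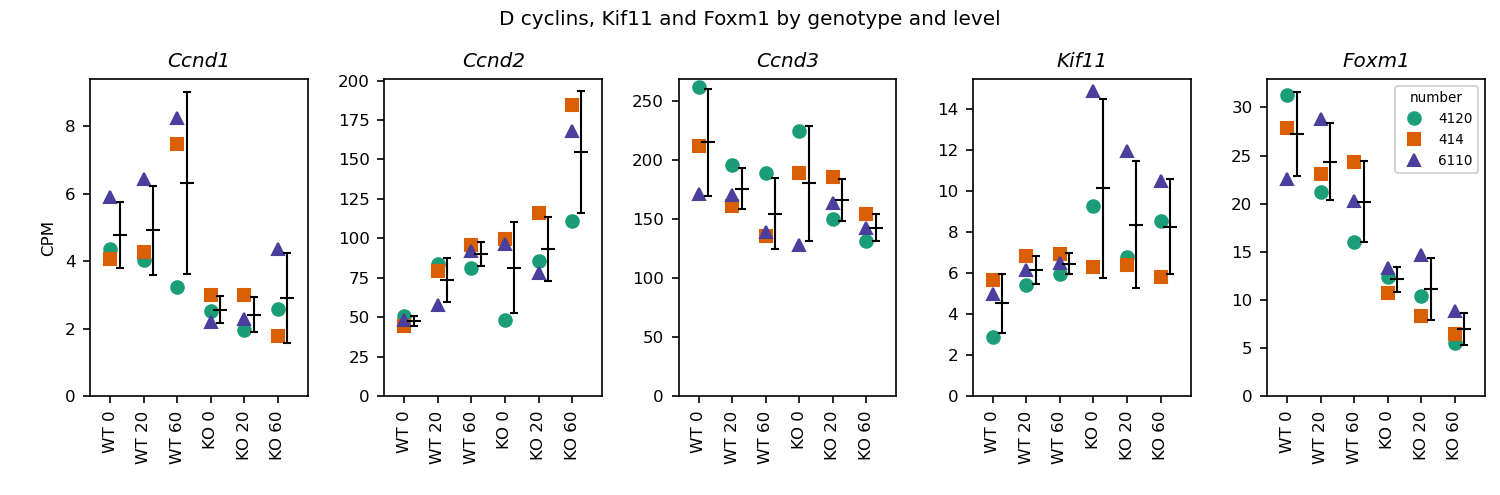
CPM of Ccnd1, Ccnd2, Ccnd3, Kif11 and the transcription factor Foxm1 in each library (points, coloured by number) with the mean and SD of each group of 3 (black), by genotype and level; axes start at 0. Foxm1 lies lower in every KO library than in every WT library of the same level.

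Levels 20 and 60 were then compared with 0 within each genotype. Both comparisons of a genotype share its libraries at 0. Pcna rose at level 60 in the libraries labelled KO, the only member called in any of these comparisons without a block on replicate number. The numbers paired libraries for KO 60 against 0. With the block, edgeR called 3 of 40 members there, Pcna, Mcm7 and Ccnd2 (adjusted p = 0.0016, 0.0156 and 0.0317). It called 1094 of the 17159 genes tested, a share close to that of the members. Pcna stood in KO at 86.8, 95.4 and 119 CPM at level 0, at 169.9, 156 and 175 CPM at level 20 and at 569, 261 and 655 CPM at level 60. All 3 libraries at 60 lay above all 3 at 0, with 414 the lowest of them (log2 fold change 2.30, SE 0.44, edgeR adjusted p = 0.00972). In WT, Pcna stood at 74.4, 57.7 and 183 CPM at level 0, at 166, 206 and 188 CPM at level 20 and at 449.5, 181 and 501 CPM at level 60. The 6110 library at 0 lay above the 414 library at 60, and the difference missed the adjusted threshold (1.85, SE 0.44, adjusted p = 0.120).

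Number 414 had the highest mitochondrial shares at level 60 (41.7% in WT and 34.5% in KO), and its Pcna was the lowest there. The library of highest share also had the lowest Pcna at level 20 in both genotypes, but at level 0 in neither. The part of the mitochondrial share in the Pcna values was not tested. Without the 414 library at 60 the log2 fold change was 2.61 in KO (edgeR adjusted p = 0.0064), and in WT it passed the threshold (adjusted p = 0.0305), as it did without the WT library of 6110 at 0 (2.52, adjusted p = 0.0318). Without the libraries above 20% mitochondrial counts it was 1.98 in WT (adjusted p = 0.211) and 2.57 in KO (adjusted p = 0.0338). The KO call was lost without number 4120 (adjusted p = 0.357), without number 6110 (0.0669), without the 4120 library at 0 (0.0656) or the 414 library at 0 (0.0722), with TPM (0.276) or FPKM (0.0956), and with scaling by library size alone (2.13, adjusted p = 0.0677). Pcna has the annotated pseudogenes Pcna-ps1 and Pcna-ps2, and how reads shared between copies were assigned is not stated. Pcna-ps2 stood at 5.19 to 9.06 CPM at level 0 and at 24.2 to 36.0 CPM at level 60 in KO (2.13, SE 0.35, adjusted p = 0.0036), so the values of each are uncertain.

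At level 60 against 0, edgeR called 1 member in KO (2.54% of genes), with 5 at an unadjusted p under 0.05 (14.2% of genes). It called 0 members in WT (0.221%), with 6 unadjusted (7.94%), and DESeq2 called 1 there among 241 genes and 3 in KO among 935. At level 20 against 0 it called 0 members in WT (0.6%), with 2 unadjusted (5.77%), and 0 in KO (0.449%), with 0 unadjusted (3.23%); DESeq2 also called 0 in both. The median log2 change of the members at 60 was −0.11 in WT and −0.03 in KO, and at 20 it was 0.09 in WT and −0.05 in KO, beside −0.02, 0.00, −0.02 and −0.03 for all genes. Library-size scaling moved the median of all genes at 60 in KO to −0.22 and that of the members to −0.27.

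**Figure D5:**
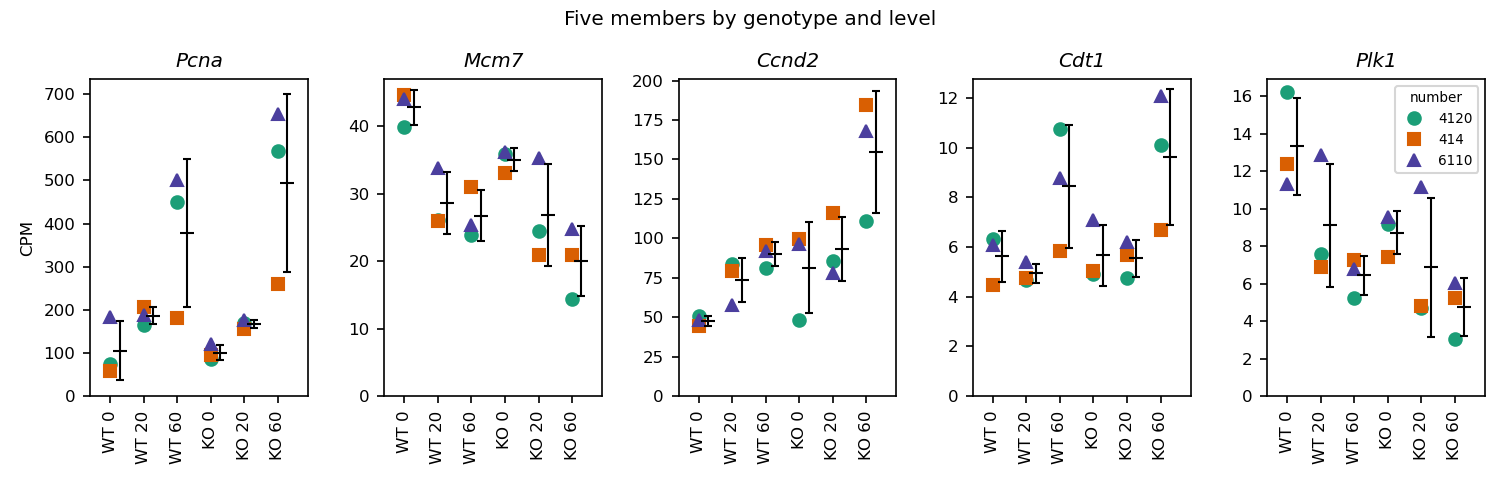
CPM of Pcna, Mcm7, Ccnd2, Cdt1 and Plk1 in each library (points, coloured by number) with the mean and SD of each group of 3 (black), by genotype and level; axes start at 0. Pcna, Ccnd2 and Cdt1 have their highest group means at level 60 and Mcm7 and Plk1 their lowest, in both genotypes.

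The same 5 members had an unadjusted p under 0.05 at level 60 in both genotypes, and only Pcna in KO passed adjustment without the block. Ccnd2 went from 50.5, 44.1 and 48.0 CPM at 0 to 81.4, 96.0 and 92.2 CPM at 60 in WT, with no overlap (log2 fold change 0.92, SE 0.27, edgeR adjusted p = 0.235). In KO it went from 48.5, 99.3 and 96.6 CPM to 110.9, 185 and 168 CPM, with no overlap (0.92, SE 0.26, adjusted p = 0.0834). Blocked on replicate number, the KO value passed (adjusted p = 0.0317). Mcm7, a helicase subunit whose gene also holds a miRNA cluster, went from 39.9, 44.6 and 44.0 CPM at 0 to 23.8, 31.0 and 25.4 CPM at 60 in WT, with no overlap (−0.68, SE 0.22, adjusted p = 0.309). In KO it went from 35.9, 33.1 and 36.2 CPM to 14.4, 20.9 and 24.8 CPM, with no overlap (−0.81, SE 0.22, adjusted p = 0.0649), and with the block it passed (adjusted p = 0.0156). At level 20 in WT, Mcm7 stood at 26.1, 25.9 and 33.9 CPM (−0.58, SE 0.22, adjusted p = 0.616).

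The other members of smallest p at level 20 were G1 and licensing genes. In WT, Ccnd2 stood there at 83.6, 79.2 and 57.6 CPM, above its 3 libraries at 0 (log2 fold change 0.63, SE 0.26, edgeR adjusted p = 0.742). Cdc6 stood at 1.62, 1.56 and 1.25 CPM in WT, against 1.05, 0.84 and 0.56 CPM at 0, with no overlap (0.86, SE 0.42, adjusted p = 0.875). In KO, Mcm7 stood at 24.4, 20.9 and 35.4 CPM, where the 6110 library lay among those at 0 (−0.38, SE 0.22, adjusted p = 1.00), and Pcna had a log2 fold change of 0.73 (SE 0.43, adjusted p = 1.00), with all 3 libraries above those at 0. Ccne2 went from 0.83, 2.62 and 0.64 CPM to 0.42, 0.22 and 0.89 CPM in KO, with overlap (−1.37, SE 0.97, adjusted p = 1.00).

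Cdt1, which loads the helicase together with Cdc6, stood in WT at 6.34, 4.46 and 6.10 CPM at 0 and at 10.8, 5.83 and 8.77 CPM at 60 (0.59, edgeR adjusted p = 0.614). In KO it stood at 4.91, 5.03 and 7.09 CPM at 0 and at 10.1, 6.67 and 12.1 CPM at 60 (0.76, adjusted p = 0.177). As with Pcna, 414 was the lowest of the 3 at level 60 in both genotypes. Plk1, a kinase of mitotic entry and exit, stood in WT at 16.2, 12.4 and 11.3 CPM at 0 and at 5.24, 7.26 and 6.80 CPM at 60, with no overlap (−1.05, adjusted p = 0.35). In KO it stood at 9.19, 7.40 and 9.55 CPM at 0 and at 3.02, 5.20 and 6.02 CPM at 60, with no overlap (−0.88, adjusted p = 0.255). Its 6110 library was not the highest at WT 0 or WT 60. In WT at 60, 0 of 9 mitotic members and 2 of 11 chromosome members had a positive fold change, and in KO 5 of 9 and 1 of 11. Their medians were −0.19 and −0.28 in WT and 0.02 and −0.11 in KO, where library-size scaling turned the mitotic value to −0.26.

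The response to a level did not differ between genotypes for any member at the adjusted threshold. For level 20, edgeR called 0 members and 0% of genes, with 0 members unadjusted against 0.396% of genes. For level 60 it called 0 members and 0% of genes, with 0 unadjusted against 1.1% of genes. DESeq2 called 0 members for both. The edgeR fit had no block on number, though the numbers paired libraries for WT 20, KO 20 and KO 60 against 0. Spread shared within a number thus stayed in its error. Both unadjusted shares of genes were below the share this cut gives where no gene differs, so they are no background for the members. With the block, edgeR also called 0 genes for both levels. The members' median difference, KO minus WT, was −0.13 at 20 and 0.12 at 60, the latter turning to −0.03 with library-size scaling. The smallest p at 60 belonged to Mcm4 (−0.58, SE 0.33, adjusted p = 1.00), Kif11 (−0.80, SE 0.48) and Birc5, which encodes survivin (0.83, SE 0.77), and at 20 to Kif11 (−0.72, SE 0.48), Cdc6 (−0.72, SE 0.59) and Ccnd2 (−0.43, SE 0.37), all with an adjusted p of 1.00. These standard errors, from the fit without the block, leave differences of the same size as the responses themselves within reach. Like responses are thus not shown.

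Other genes of the cycle were taken from fixed lists. Of 15 tested cell cycle transcription factors, 1 differed between genotypes at level 60 (0.268% of genes) and 0 at levels 0 and 20 (0.274% and 0.21%): Foxm1, which drives the G2 and mitotic genes, was lower in KO at level 60. It stood at 16.0, 24.4 and 20.2 CPM in WT and at 5.56, 6.49 and 8.80 CPM in KO, with no overlap (log2 difference −1.54, SE 0.25, edgeR adjusted p = 0.00855). At level 0 it stood at 31.2, 27.9 and 22.5 CPM in WT and at 12.4, 10.7 and 13.3 CPM in KO (−1.16, SE 0.24, adjusted p = 0.0641). At level 20 it stood at 21.2, 23.1 and 28.8 CPM against 10.4, 8.27 and 14.6 CPM (−1.13, SE 0.24, adjusted p = 0.077). At every level the groups did not overlap. DESeq2 called Foxm1 at all 3 levels (adjusted p = 0.0013, 0.003 and 2.03e-06), and a filter at a mean of 1 CPM called it with edgeR at 0 (0.0446). The call at 60 was lost without number 4120 (adjusted p = 0.222), without 414 (0.371), without the KO library of either at 60, with TPM (0.429), FPKM (0.0532) or library-size scaling (0.0517), with only the compared groups in the fit (0.144), and without the libraries above 20% mitochondrial counts (−1.33, adjusted p = 0.352). Of the other S phase genes, 1 of 35 differed at level 0 (0.274% of genes) and 0 at 20 and 60: Chaf1b, a subunit of the chromatin assembly factor, stood at level 0 at 124, 81.3 and 99.8 CPM in WT and at 25.2, 30.3 and 21.1 CPM in KO (−1.998, SE 0.36, adjusted p = 0.0204). In culture sums it was also lower, again as 1 of 35 (0.142% of genes; −1.67, adjusted p = 0.0417), which was lost when any number was left out. At level 0, its adjusted p ran from 0.0365 to 0.35 over the libraries and numbers left out. At 20 and 60 the most negative log2 difference in this list was −1.64 and −1.77. The smallest edgeR adjusted p in the list was 0.0854 and 0.0919 there, so the calls do not confine low values to level 0. Among 40 other G2 and mitosis genes 0 were called between genotypes at any level, with 1 at an unadjusted p under 0.05 at each, against 12.1%, 7.79% and 10.7% of genes at 0, 20 and 60.

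With level, 1 of the 10 CDK inhibitors and pocket proteins rose at 20 in each genotype (0.6% of genes were called in WT and 0.449% in KO): Cdkn1a, the inhibitor p21. It went from 199.8, 113 and 229 CPM to 599.9, 797 and 704 CPM in WT (log2 fold change 1.95, SE 0.36, edgeR adjusted p = 0.0164) and from 199, 187 and 214 CPM to 960.0, 995 and 559 CPM in KO (2.07, SE 0.37, adjusted p = 0.0108). At 60 in KO, where 2.54% of genes were called, 2 of the 10 rose, Cdkn1a (1.84, SE 0.36, adjusted p = 0.0107) and Cdkn2b (1.95, SE 0.44, adjusted p = 0.0257), and Cdkn1b, the inhibitor p27, fell by 1.02 (SE 0.21, adjusted p = 0.0132). Of the 10 genes in the p53 target list, which holds Cdkn1a, 2 rose at 20 in each genotype (0.6% and 0.449% of genes) and 3 at 60 in KO (2.54% of genes); the others called were Plk3, a stress-responsive kinase (2.24, 2.65 and 2.44 in WT 20, KO 20 and KO 60), and Sesn2 (1.53 in KO 60). The calls of Cdkn1a at 20 were lost with scaling by library size alone (edgeR adjusted p = 0.0644 in WT and 0.0555 in KO). They were also lost with TPM (0.153 and 0.192) or FPKM (0.0627 and 0.0715). The same held without the libraries above 20% mitochondrial counts (0.0618 and 0.0631). With only the compared groups in the fit, the WT call was lost (0.0803) and the KO call kept (0.0186). DESeq2, limma-voom and the replicate block kept both. Leaving out libraries or numbers gave an adjusted p of up to 0.544 in WT and 1 in KO. Also called at 60 in KO were Orc1, a subunit of the origin recognition complex, from 3.43, 2.37 and 2.87 to 18.9, 8.02 and 14.1 CPM (2.24, SE 0.44, adjusted p = 0.0107), Myc (2.09, adjusted p = 0.0445) and the spindle midzone motor Kif23, which fell by 1.00 (adjusted p = 0.0311). Like Pcna, these calls at 60 were lost under scaling by library size alone, apart from Cdkn1b and Plk3. Of 9 runs without a library or number, the call was lost in 9 for Myc and 8 for Kif23. It was lost in 6 for Cdkn2b and Sesn2, 5 for Cdkn1a and Cdkn1b, 4 for Orc1 and 2 for Plk3. In WT at 60, 0 genes of these lists were called. The largest log2 fold change there was 1.36 among the CDK inhibitors and pocket proteins and 1.66 among the transcription factors.

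The same count across the replicate numbers was taken for the other lists. Of 40 other G2 and mitosis genes, 17 were highest in 6110 in all 6 groups, beside 5 of 35 other S phase genes, 3 of 17 other G1 and CDK regulators, 1 of 10 CDK inhibitors and pocket proteins, and 0 of 15 transcription factors, against the 5.31% of all genes given above. Foxm1 was among those not highest in 6110 throughout: at WT 0 its 6110 library was the lowest of the 3. These lists were made with earlier results of these data known, and the numbers are not groups the study set, so this is a description of the libraries.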

How the data were processed

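RNA-seq was analysed in 18 libraries, 3 in each of 6 groups by genotype and level. The build mm10 and the tools StringTie 2.1.3b, HISAT2 2.1.0, FastQC 0.11.7 and bcl2fastq 2.20.0 are listed, without a role, in the submitters' processing notes; strand is not given in the sources used here. Per the file headers, the deposited table holds a raw read count, an FPKM and a TPM for each gene and library. Counts were tested; the deposited FPKM and TPM values served as alternatives on a log2 scale with a pseudocount of 0.1, and TPM for levels between genes.

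Genes were kept with filterByExpr and scaled with TMM, and all libraries entered 1 fit with a mean for each group, using the quasi-likelihood test of edgeR 4.0.16 (R 4.3.3, limma 3.58.1), with Benjamini-Hochberg adjustment. A second fit used counts summed per culture. Standard errors are the absolute log2 fold change over the square root of F. DESeq2 1.42.0, limma-voom, other scalings and filters, and each library or number left out were alternatives. The tests were also run on simulated counts, drawn independently for each library with no effect of replicate number. That run does not check the tests where libraries of the same number share their levels. No pair of libraries of a group agreed within counting noise.

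Members called, or the 3 of smallest p with a mean of at least 1 CPM, are given in full, with called genes of the fixed lists and Sirt6; other members in the text were picked after their values were seen. The members and lists were chosen with earlier results of these data known. Whether equal numbers pair libraries was judged by the correlation of deviations from group means, which had to pass 0.1 in all 3 numbers. It did for KO against WT at 60 (0.43 to 0.53), in culture sums (0.21 to 0.57), and for WT 20 (0.62 to 0.76), KO 20 (0.40 to 0.58) and KO 60 (0.33 to 0.67) against 0. It did not for KO against WT at 0 or 20, or for WT 60 against 0, where numbers are only names. Of the 40 members, 16 overlap another annotated gene (Kif11, Mcm7, Ccnd1, Ccnd2, E2f1 and Top2a among them), so their reads cannot be told apart without strand, and 5 have a named pseudogene. Promoters are from RefSeq (GRCm38.p6). Figures were drawn with matplotlib 3.10.9.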

Additional observations from a re-analysis of the deposited data

Results flagged for a closer look

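For 2 members, the difference between levels 60 and 0 within equal replicate numbers had one sign in WT and the other in KO for all 3 numbers. The numbers did not pair libraries for WT 60 against 0, so this reading by number is a description. Taken without numbers, Mcm4 in WT overlapped, at 18.6, 14.1 and 10.5 CPM at 0 and at 22.2, 17.6 and 12.3 CPM at 60, and Kif11 in KO overlapped, at 9.25, 6.28 and 14.8 CPM at 0 and at 8.51, 5.81 and 10.5 CPM at 60. Kif11 had a mean log2 change of 0.56 in WT and −0.24 in KO, a difference of −0.81. Mcm4 had 0.27 in WT and −0.31 in KO, a difference of −0.58. edgeR's test of the difference, without a block on number, gave an adjusted p of 1.00 for both.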

How the results depend on the processing

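The results rest on 3 libraries per group, and 5 of the 18 libraries have over 20% mitochondrial counts. No named gene's log2 fold change changed sign under any alternative run. Calls were gained and lost, and medians of the members changed sign with libraries left out. The number of members called at 60 against 0 in KO, 1, became 0 with library size alone, TPM or FPKM, 2 with a mean of at least 1 CPM, and 3 with DESeq2 or the replicate block, and ran from 0 to 1 with libraries left out. In WT the 0 members became 1 with DESeq2, the block, or the mitochondrial share as a covariate (both mitochondrial alternatives were added after seeing the data), and ran from 0 to 1 with libraries left out. Between numbers, 15 members were called with DESeq2, and TPM gave 13 members at an unadjusted p under 0.05; with a number left out these ran from 0 to 15 and from 2 to 27.

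With 1 library or number left out, the members' median log2 difference ran from −0.37 to 0.41 for KO against WT at 0, −0.42 to 0.28 at 20, −0.20 to 0.52 at 60, −0.50 to 0.36 for KO 20 and −0.41 to 0.41 for KO 60 against 0, and −0.30 to 0.48 for the difference in response at 60. The cause was not tested. The 18 members highest in 6110 were 14 to 18 under other scalings, TPM and FPKM. All genes called rose with DESeq2 from 47, 36 and 46 (KO against WT at 0, 20 and 60) to 240, 117 and 221, from 26 to 402 in culture sums, from 6 to 1168 between numbers, and at 60 against 0 from 38 to 241 in WT and from 436 to 935 in KO. The replicate block gave 208, 119, 183, 22, 206 and 1094 for the same comparisons except numbers, and 158 for WT 20 (103 without) and 105 for KO 20 (77 without). The numbers did not pair libraries for KO against WT at 0 and 20 or WT 60 against 0, where the block gave Foxm1 an edgeR adjusted p of 0.0194 and 0.0283 and Pcna 0.0172. With the block Chaf1b was no longer called in culture sums (adjusted p = 0.0561); apart from the calls given in the report, it changed no other call of a named gene. Library size alone gave 4 calls in WT and 163 in KO at 60.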
